A study of Homo sapiens with 12 samples.

Results

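The genes described here were silent in vehicle-treated PANC-1 cells and carried reads in every library that had received chaetocin. They were chosen by count: at most 3 reads summed over the 3 vehicle libraries, at most 6 summed over the 3 MLN8237 libraries, and at least 10 in each of the 6 libraries with chaetocin, alone or in combination. Of 57773 genes in the table, 29704 met the limits on vehicle and MLN8237, and 69 of those also met the limit on the libraries with chaetocin. VWF, MUC22, LINC00601 and SSX1 were dropped by name because genes of their kinds were set aside, which left 65 genes. The treated counts made the choice, so a difference of these genes from vehicle or from MLN8237 is a description and carries no test.

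RNA was sequenced from PANC-1, an established cell line from a human pancreatic carcinoma, kept under passage 30. The groups were the combination of 30 nM chaetocin with 90 nM MLN8237, 30 nM chaetocin alone, 90 nM MLN8237 alone, and vehicle (DMSO), each for 24 h and with 3 libraries. The treatment label of the combination gives the second compound's code with a differing digit, and it was read as MLN8237. Nothing in the labels tells whether the libraries of a group were grown as separate cultures, and the p-values therefore cover only the spread between these libraries, which may be technical.

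Chaetocin is a fungal metabolite known as an inhibitor of the histone methyltransferase SUV39H1, and it also acts on thioredoxin reductase. MLN8237 (alisertib) inhibits the mitotic kinase Aurora A. SUV39H1 and its relatives place methyl groups on lysine 9 of histone H3, a mark that HP1 proteins bind in compacted, silent chromatin. Genes meant for other tissues are commonly kept off by this mark, by DNA methylation of their promoters, or by the absence of the factors that would start them.

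Summed gene counts were 49439795 to 63747510 per library. The leading principal component (59.95% of the variance) placed the 6 libraries with chaetocin apart from the 6 without it, and on it combination replicate 2 lay at 50.8, close to the chaetocin libraries, against 95.3 and 89.0 for combination replicates 1 and 3. The next component (14.62%) set the 3 treated libraries numbered 3 toward 1 end. Epithelial keratins marked the line throughout: KRT7, KRT8, KRT18, KRT19, EPCAM and CDH1 summed to 2024 to 2257 CPM (counts scaled to library size) with the combination, 2268 to 2492 with chaetocin, 4227 to 4610 with MLN8237 and 3928 to 4481 with vehicle. In this table the low values 2 and 4 were more frequent than 1 and 3 in every group (7063 values of 2 against 5758 of 1 in vehicle), so counts near the limits of the rule often moved in steps of 2.

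The 65 genes differed in kind from the other silent genes. By Ensembl identifier 37 were protein-coding (56.9%), 21 were long non-coding, of which 14 were intergenic and 7 antisense, 5 were pseudogenes, and CTD-2287O16.3 and MIR936 had no match in the annotation. Of the 29635 genes that met the same limits on vehicle and MLN8237 but not the limit of 10, 11.97% were protein-coding, 24.95% long non-coding and 32.0% pseudogenes. The median gene length in the authors' table was 2464 bases for the 65 genes and 469 bases for the other silent genes, and a count limit is met more easily by a longer transcript. The part of length in this difference was not tested. In vehicle 30 of the 65 genes had no read at all and 35 had 1 to 3, 22 had none with MLN8237, and 12 had none in any of the 6 libraries without chaetocin. The same limits with the roles exchanged, silent in the 6 libraries with chaetocin and at 10 or more in each of the 6 without it, were met by 0 genes. Taking each treatment alone, and before names were dropped, 221 genes had at most 3 reads in vehicle and at least 10 in each combination library, 94 did so in each chaetocin library and 0 in each MLN8237 library.

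Just inside the limit of 10 lay 10 genes whose lowest treated library held exactly that count, and just outside lay 10 genes at 9. AP000439.1, a long non-coding RNA, had 15, 10 and 12 reads with the combination and 12, 16 and 10 with chaetocin, and none elsewhere. P2RX1, the ATP-gated cation channel of platelets and smooth muscle, had 19, 12 and 29 with the combination and 10, 14 and 17 with chaetocin. TMEM119, a surface protein known as a microglial marker, missed the limit with 57, 27 and 29 with the combination and 9, 22 and 12 with chaetocin. RP11-290L1.5 and RP11-325F22.5 missed it by a single library too, at 9 reads in chaetocin replicate 3 and chaetocin replicate 1. The genes on either side of the limit thus overlapped in their counts, since 1 library decided their place.

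**Figure D1:**
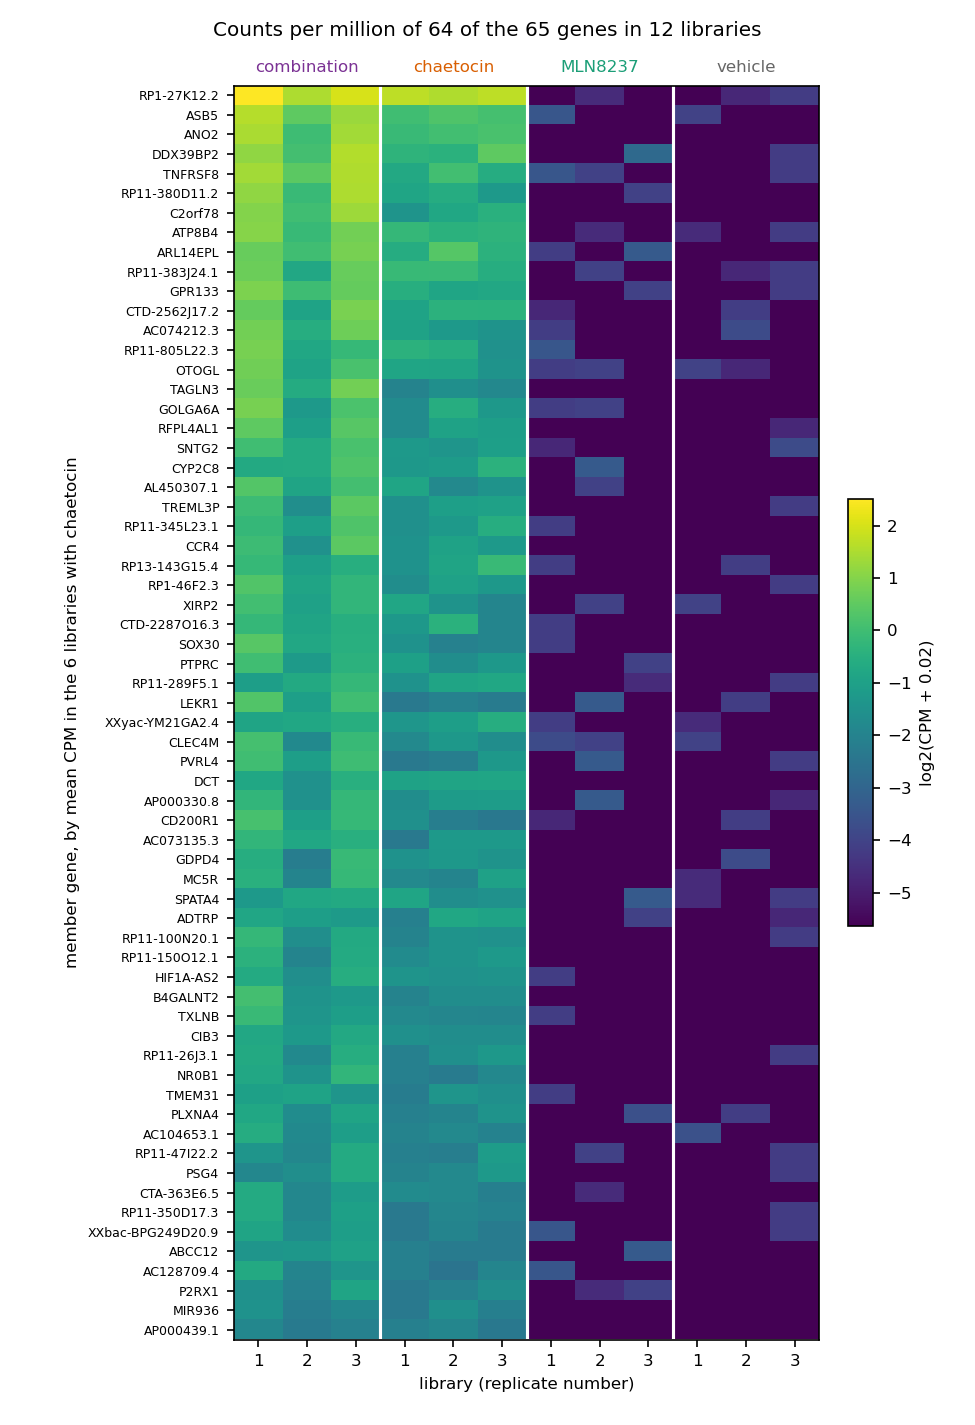
Level of 64 of the 65 genes (rows, ordered by mean CPM in the 6 libraries with chaetocin) in the 12 libraries (columns, by group and replicate number), coloured by log2 of CPM plus 0.02. Every row holds at least 10 reads in each combination and chaetocin column because the rule requires it, and combination replicate 2 is lower than combination replicates 1 and 3 in most rows.

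RefSeq promoters (GRCh38.p14) could be matched to 36 of the 65 genes, 32 of them protein-coding. They were mostly poor in CpG, the dinucleotide whose methylation is linked to silencing. The ratio of observed to expected CpG over the 300 bases around the start had a median of 0.337 in the 32 coding promoters, against 0.259 in 2567 promoters of the other silent coding genes and 0.763 in 15843 coding promoters in all. A ratio of at least 0.6 was found in 8 of the 32 (25%), against 21.0% of the other silent coding genes and 65.8% of all coding promoters. Those 8 belonged to LEKR1, PLXNA4, DCT, MC5R, SOX30, SNTG2, NR0B1 and SPATA4.

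**Figure D2:**
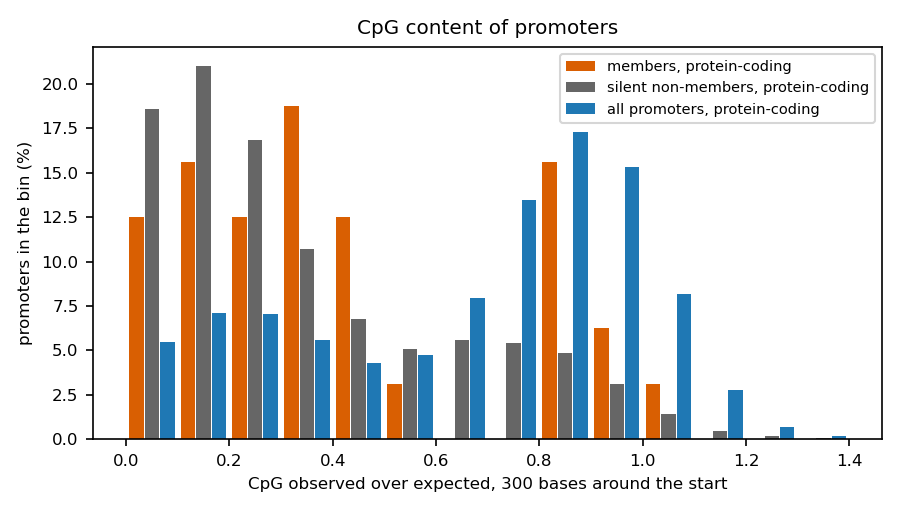
Share of promoters (percent, vertical axis) by observed over expected CpG in the 300 bases around the start (horizontal axis) for the 32 coding genes of the 65, the 2567 other silent coding genes, and all 15843 coding promoters. The 65 genes' promoters lie mostly under 0.5 with a smaller set of 8 above 0.8, while coding promoters in general gather around 0.9.

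The contrast is seen in neighbours on chromosome 4. ASB5 and SPATA4 lie 18002 bases apart on the minus strand and both carried reads with chaetocin, yet their starts look unlike. The 250 bases before each RefSeq start are shown, with TATAAA on either strand in capitals for ASB5 (GRCh38.p14, minus strand, chr4:176269223-176269472) and every CG in capitals for SPATA4 (minus strand, chr4:176195586-176195835).
ASB5: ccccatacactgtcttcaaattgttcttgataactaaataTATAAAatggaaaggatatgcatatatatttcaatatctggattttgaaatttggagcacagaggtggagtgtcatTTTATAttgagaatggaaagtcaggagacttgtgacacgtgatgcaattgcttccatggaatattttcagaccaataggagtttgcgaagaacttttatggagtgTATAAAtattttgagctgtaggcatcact
SPATA4: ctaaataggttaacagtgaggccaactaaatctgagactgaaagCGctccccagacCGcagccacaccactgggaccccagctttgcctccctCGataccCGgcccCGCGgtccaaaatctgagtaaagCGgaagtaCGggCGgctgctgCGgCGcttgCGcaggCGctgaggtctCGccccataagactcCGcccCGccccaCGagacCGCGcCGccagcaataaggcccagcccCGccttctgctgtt
ASB5 has 3 matches to TATAAA, the nearest beginning 29 bases before the start, and 3 CpG in the 300 bases. SPATA4 has no TATAAA and 25 CpG in its 300 bases. TATAAA occurred in 7 of the 32 coding promoters (21.9%), against 23.1% of the other silent coding promoters and 9.63% of all coding promoters.

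A motif known to be bound by the oxidative stress factor NRF2 with small MAF proteins was searched in the same way. Its core, TGACNNNGC on either strand, was in 10 of the 32 coding promoters (31.3%), against 12.3% of the other silent coding promoters and 14.3% of all coding promoters. The 10 were ATP8B4, CD200R1, CLEC4M, GDPD4, GOLGA6A, LEKR1, PLXNA4, PSG4, SOX30 and TXLNB. The related AP-1 motif TGANTCA was in 1 (TNFRSF8, 3.13%, against 9.35% of the other silent and 5.75% of all coding promoters), and the E-box CACGTG in 3 (ASB5, TNFRSF8 and TXLNB, 9.38%, against 4.99% and 8.88%). The promoters of CLEC4M (plus strand, chr19:7762993-7763242) and SOX30 (minus strand, chr5:157671481-157671730), both from GRCh38.p14, are shown with that core in capitals, in each case on the opposite strand, as an example poor in CpG and an example rich in it.
CLEC4M: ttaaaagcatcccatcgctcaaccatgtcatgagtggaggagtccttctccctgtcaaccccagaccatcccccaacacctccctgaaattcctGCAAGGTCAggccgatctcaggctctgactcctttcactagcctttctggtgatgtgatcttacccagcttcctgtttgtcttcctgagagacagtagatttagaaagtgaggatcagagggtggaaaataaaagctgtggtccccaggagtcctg
SOX30: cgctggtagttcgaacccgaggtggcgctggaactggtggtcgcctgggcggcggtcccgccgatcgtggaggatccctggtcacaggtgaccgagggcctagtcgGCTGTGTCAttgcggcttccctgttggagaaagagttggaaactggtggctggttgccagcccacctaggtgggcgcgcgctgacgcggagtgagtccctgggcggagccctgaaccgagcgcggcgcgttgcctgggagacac
A match of these letters is not a measured site, and no binding was measured in these libraries.

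The gene with the most reads was RP1-27K12.2 (ENSG00000231683, hg19 chromosome 6, 53426087 to 53481969), an intergenic RNA of the annotation. It had 334, 156 and 223 reads with the combination, 183, 184 and 186 with chaetocin, 0, 1 and 0 with MLN8237, and 0, 1 and 2 with vehicle. Per library total, chaetocin over vehicle was a ratio of 170 (exact 95% interval 57.8 to 826, for counting error only). It lies on the strand of GCLC and across its start, so part of its reads could belong to that gene, which encodes the catalytic subunit of glutathione synthesis. GCLC had 11909 to 13122 reads per library with the combination, 12512 to 13637 with chaetocin, 2678 to 3024 with MLN8237 and 2725 to 3974 with vehicle. Whether reads of RP1-27K12.2 belong to GCLC was not tested.

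ASB5 (ENSG00000164122, chromosome 4, 177134824 to 177198722), an ankyrin repeat protein of muscle, had 178, 76 and 133 reads with the combination, 55, 75 and 60 with chaetocin, 4, 0 and 0 with MLN8237 and 2, 0 and 0 with vehicle. ANO2 (ENSG00000047617, chromosome 12, 5641035 to 6055398), a calcium-activated chloride channel of sensory neurons, had 162, 53 and 143 with the combination, 51, 65 and 63 with chaetocin, and no read in the 6 libraries without it. For such genes a fold can only be bounded, against 3 reads over the vehicle group, and ANO2 was at least 115-fold higher with the combination and at least 55.0-fold higher with chaetocin. TNFRSF8 (ENSG00000120949, chromosome 1, 12123434 to 12204264), the lymphocyte receptor CD30, had 152, 75 and 159 with the combination, 33, 64 and 37 with chaetocin, 4, 2 and 0 with MLN8237 and 0, 0 and 2 with vehicle. In these coding genes combination replicates 1 and 3 were the highest libraries, and combination replicate 2 lay within or just above the chaetocin range.

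C2orf78 (ENSG00000187833, chromosome 2, 74011316 to 74044274), a little described protein, had 115, 54 and 136 reads with the combination, 20, 36 and 40 with chaetocin and none elsewhere, at least 98.3-fold and at least 29.5-fold above vehicle. ATP8B4 (chromosome 15), of the phospholipid flippase family, had 119, 49 and 93 with the combination and 47, 46 and 44 with chaetocin, against 1, 0 and 2 with vehicle. GPR133 (chromosome 12), an adhesion G protein-coupled receptor now named ADGRD1, had 109, 53 and 82 with the combination, 38, 34 and 33 with chaetocin and 0, 0 and 2 with vehicle. For C2orf78 and GPR133 all 3 combination libraries were above all 3 chaetocin libraries. ARL14EPL (chromosome 5), a little described protein, differed in this respect: it had 88, 54 and 98 with the combination and 36, 81 and 42 with chaetocin, so the groups overlapped.

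DDX39BP2 (ENSG00000238024, chromosome 6, 29960986 to 29961382), a short pseudogene of the RNA helicase gene DDX39B, had 131, 57 and 164 reads with the combination, 43, 46 and 80 with chaetocin, 0, 0 and 6 with MLN8237 and 0, 0 and 2 with vehicle. Reads of a near-identical parent could be counted to it, which was not tested. The parent DDX39B averaged 298 ± 6.24 CPM with the combination, 283 ± 9.21 with chaetocin, 296 ± 6.67 with MLN8237 and 292 ± 1.895 with vehicle (SD, n = 3 each), and its log2 fold change with chaetocin over vehicle was -0.05 ± 0.07 (SE, edgeR adjusted p = 0.694). Among the non-coding genes, RP11-380D11.2 (chromosome 15) had 129, 50 and 157 reads with the combination, 30, 41 and 23 with chaetocin and none in vehicle, RP11-383J24.1 (chromosome 8) had 93, 32 and 84 and 50, 58 and 38, and the antisense RNA CTD-2562J17.2 (chromosome 11) had 87, 28 and 99 and 29, 47 and 41. GOLGA6A, RFPL4AL1, PSG4, AC073135.3 and TREML3P also have near-identical relatives, and the sources used here do not give how the authors' counting treated reads shared between copies. Their counts are therefore uncertain.

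The 37 coding genes belong to many tissues, and were grouped by function after they were known. A group of 6 cell surface proteins known from blood, immune and vessel cells held TNFRSF8, which had the most reads, CCR4, CD200R1, PTPRC, CLEC4M and P2RX1, an ATP-gated channel of platelets and smooth muscle. The group summed to 409, 169 and 400 reads per library with the combination, 122, 167 and 126 with chaetocin, 8, 5 and 4 with MLN8237 and 2, 2 and 2 with vehicle. CCR4, the receptor for CCL17 and CCL22 on T cells, had 55, 18 and 74 reads with the combination and 19, 32 and 23 with chaetocin, with none in the 6 other libraries. PTPRC, the leukocyte phosphatase CD45, had 58, 23 and 41 with the combination, 27, 19 and 22 with chaetocin and none in vehicle. CD200R1, an inhibitory receptor of myeloid cells, had 63, 26 and 48 with the combination and 18, 13 and 10 with chaetocin, and CLEC4M, a C-type lectin of liver and lymph node endothelium, 62, 15 and 49 and 15, 25 and 17. Of the immune markers read beside them, PTPRC is itself one of the 65 genes, CD3E had at most 2 reads in any library, and CD14 and LYZ did not pass the test in chaetocin against vehicle (edgeR adjusted p = 0.46 and 0.308).

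Genes of muscle and the cytoskeleton were ASB5, XIRP2, TXLNB, SNTG2 and TAGLN3, with 438, 192 and 356 reads in sum with the combination, 137, 156 and 130 with chaetocin, 7, 2 and 0 with MLN8237 and 4, 0 and 3 with vehicle. XIRP2, an actin-binding protein of striated muscle, had 59, 27 and 44 with the combination and 31, 22 and 14 with chaetocin, and TAGLN3, a neuronal relative of transgelin, had 90, 35 and 93 and 13, 20 and 15. Among channels and membrane transporters were ANO2, ATP8B4 and the ABC transporter gene ABCC12, which had 21, 21 and 27 reads with the combination, 12, 12 and 11 with chaetocin and none in vehicle. Other receptors and adhesion proteins were GPR133, the melanocortin receptor MC5R, the semaphorin co-receptor PLXNA4 and the nectin PVRL4, and they summed to 241, 107 and 212 with the combination, 75, 77 and 103 with chaetocin and 1, 2 and 4 with vehicle. In the muscle and receptor groups combination replicates 1 and 3 were the highest libraries.

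Enzymes were CYP2C8, a drug-metabolizing P450 of liver, DCT, the melanin synthesis enzyme dopachrome tautomerase, B4GALNT2, which makes the Sd(a) blood group sugar, GDPD4 and ADTRP. Here the treated groups were closer: 200, 107 and 197 reads in sum with the combination, 94, 140 and 139 with chaetocin, 0, 4 and 2 with MLN8237 and 0, 3 and 1 with vehicle. DCT had 33, 18 and 38 with the combination and 28, 33 and 31 with chaetocin, and none in the 6 other libraries. The testis genes SPATA4 and SOX30, of which SOX30 encodes a transcription factor of spermatid development, summed to 100, 63 and 71 with the combination, 49, 33 and 33 with chaetocin and 1, 0 and 2 with vehicle. NR0B1, the nuclear receptor DAX1 of adrenal and gonad, had 34, 19 and 44 with the combination and 12, 12 and 15 with chaetocin. OTOGL of the inner ear, PSG4 of the placenta and the calcium-binding protein gene CIB3 completed the described genes.

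On the deposited RPKM scale, which divides by length, the levels stayed low in both groups with chaetocin. The median over the 37 coding genes was 0.204 RPKM with the combination and 0.0969 with chaetocin, and over the 21 long non-coding genes 0.653 and 0.368. The 5 pseudogenes had medians of 0.760 and 0.375 RPKM, with the short DDX39BP2 highest at 7.70 and 3.58. In bulk RNA, few cells with much transcript and many cells with little cannot be told apart.

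Other silent genes also held more reads in the libraries with chaetocin. The 29635 other silent genes, pooled, reached 0.0168, 0.00933 and 0.0169 RPKM in the 3 combination libraries and 0.00692, 0.00828 and 0.00884 with chaetocin, against 0.00263, 0.00272 and 0.00313 with MLN8237 and 0.00183, 0.00194 and 0.00264 with vehicle, computed from the counts. The rule sets limits on these genes also: they are under its limits in vehicle and MLN8237, and are the genes that missed its limit of 10 in the libraries with chaetocin. The distance between them and the 65 genes is therefore set by the rule and is a description. Their own lower level in vehicle and MLN8237 is in part set by it too, and is likewise a description. Against this pooled level in the chaetocin libraries the 65 genes stood 2.03 to 465 times higher, with a median of 20.9. PLXNA4, whose length is 16372 bases, was the lowest, and with ABCC12, XIRP2 and LEKR1 made the 4 genes under 5 times. What the pooled reads are, transcripts or other sequence, was not tested.

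**Figure D3:**
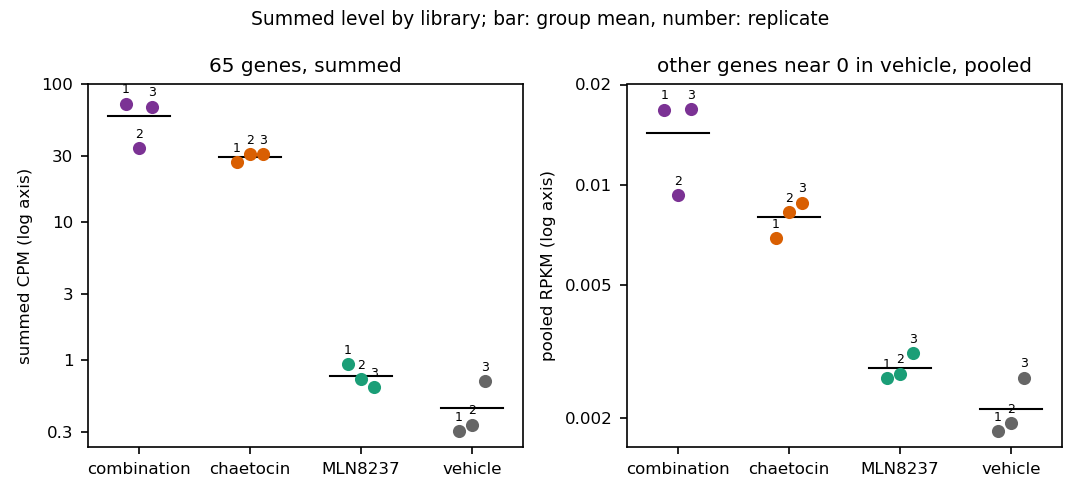
Left, summed CPM of the 65 genes in each library (points, with replicate number; bar, group mean; log axis). Right, pooled RPKM of the 29635 other silent genes in the same libraries. The 3 combination libraries of the left panel sit at 72.7, 34.5 and 68.9, the chaetocin libraries at 27.3, 31.0 and 31.3, and the MLN8237 and vehicle libraries under 1, and the right panel shows the same order of groups with smaller distances. The low place of the MLN8237 and vehicle libraries is set by the choice of genes on the left, and in part on the right.

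The combination was also set beside chaetocin alone. The rule puts the same limit on both and no order between them, but it read the counts of these 6 libraries, so the values of the 65 genes in this comparison are a description and nothing is read from how far they lie from those of all genes. Summed over the 65 genes, the libraries stood at 72.7, 34.5 and 68.9 CPM with the combination (58.7 ± 21.0, SD, n = 3) and at 27.3, 31.0 and 31.3 CPM with chaetocin (29.8 ± 2.25). MLN8237 libraries stood at 0.929, 0.720 and 0.631 CPM and vehicle libraries at 0.303, 0.337 and 0.695. Per gene, 63 of 65 log2 fold changes of the combination over chaetocin were positive and 2 were negative, with a median of 0.88 and a range of -0.05 to 2.17. The median was 0.23 over the 6412 other genes under 1 CPM and 0.00 over all 22831 genes tested. The count of positive values was also 63 with RLE scaling. The 65 genes entered the test only through the libraries where they are high, as all of them passed the filter on low counts that way. No gene was called by edgeR's quasi-likelihood test with Benjamini-Hochberg adjustment, in the 65 or in the whole table (percent called 0), and the smallest adjusted p of the 65 was 0.203. At an unadjusted p under 0.05 stood 22 of the 65 and 2677 of all genes, and DESeq2 called 5 of the 65 and 296 of all genes.

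TAGLN3 had the highest log2 fold change of the combination over chaetocin, 2.17 ± 0.43 (SE, edgeR adjusted p = 0.203), followed by LEKR1, a little described protein, at 2.10 ± 0.58. RP11-380D11.2 stood at 1.84, CD200R1 at 1.72, C2orf78 at 1.66, SOX30 at 1.60 and TNFRSF8 at 1.54, and at the other end were DCT at -0.05 and AP000439.1 at -0.03. By kind, the median was 0.99 for the 37 coding genes, 0.70 for the 21 long non-coding genes and 0.96 for the 5 pseudogenes. In 23 of the 65 genes every combination library was above every chaetocin library, where 9.54% of all genes tested were.

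Combination replicate 2 stood apart from the other combination libraries. Combination replicates 1 and 3 were both above every chaetocin library in 51 of the 65 genes, where 20.5% of all genes were. Combination replicate 2 was above every chaetocin library in 27, where 24.3% of all genes were, within the chaetocin range in 28 and below it in 10. Without combination replicate 2 the test called 573 of 23573 genes, higher or lower. Of the 65 it called 5, all higher: TAGLN3, RP11-380D11.2, C2orf78, ANO2 and TNFRSF8. Leaving out any other combination or chaetocin library gave 0 calls. The rule read the counts of these libraries, so the 5 are a description. Whether combination replicate 2 differs in treatment or in preparation was not tested.

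**Figure D4:**
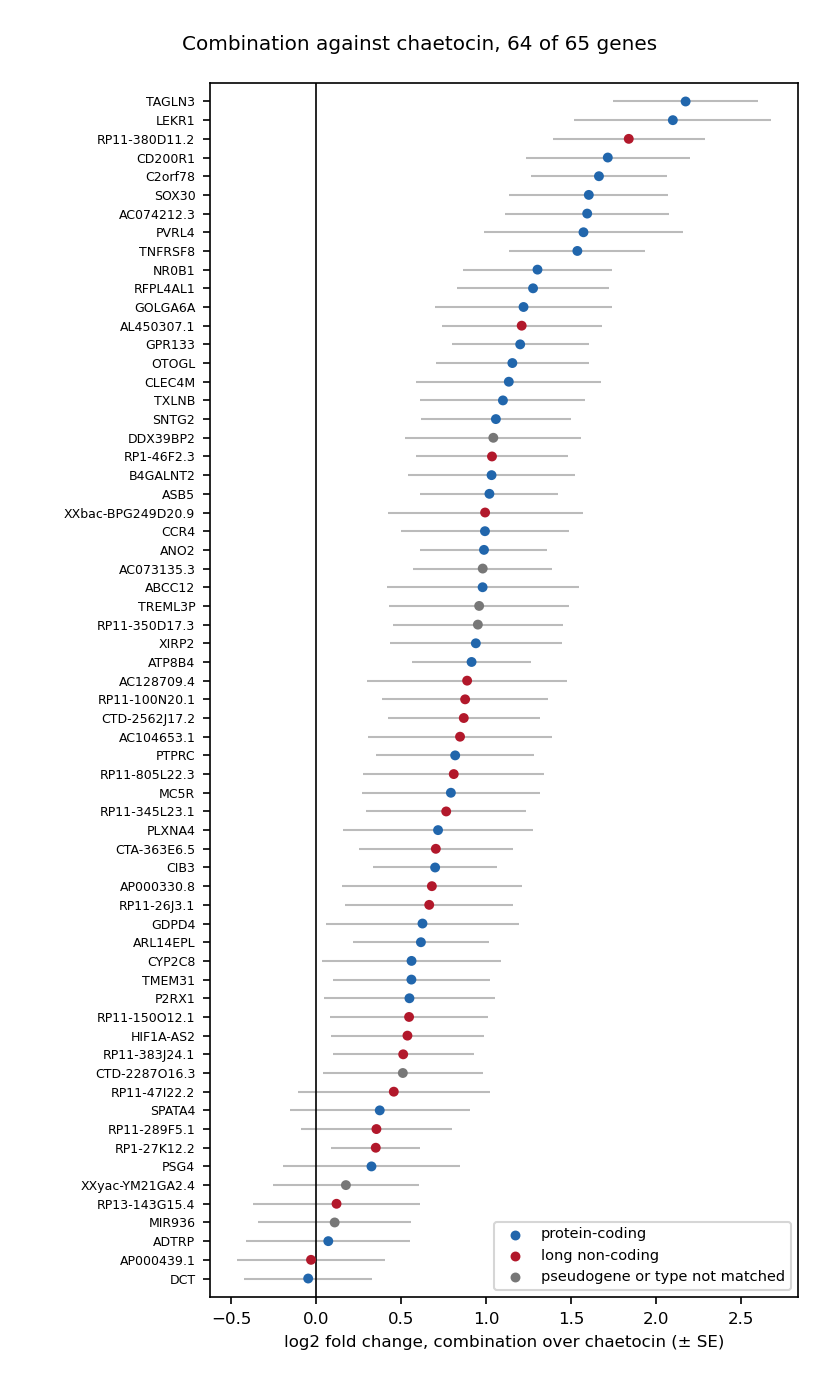
Log2 fold change of the combination over chaetocin (horizontal axis, points with ± SE from the edgeR fit) for 64 of the 65 genes, ordered by size and coloured by gene type. All but DCT and AP000439.1 lie right of 0, and no gene passed an adjusted p of 0.05.

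The genes were spread over the genome. Chromosome 6 held 8 of 65 (12.3%, against 4.83% of the other silent genes), chromosome 3 held 6, chromosome 19 held 5, and chromosomes 20, 22 and Y held none. Pairs lay close together at 4 places. SPATA4 and ASB5 were 18002 bases apart on chromosome 4, ARL14EPL and CTD-2287O16.3 overlapped on chromosome 5 and may share reads, RP1-27K12.2 and RP11-345L23.1 were 11.2 kb apart on chromosome 6, and RP11-47I22.2 and HIF1A-AS2 were 145 kb apart on chromosome 14. HIF1A-AS2 had 36, 17 and 36 reads with the combination and 20, 21 and 20 with chaetocin, with none in vehicle. HIF1A, the hypoxia factor gene it overlaps on the opposite strand, averaged 102 ± 11.2 CPM with the combination, 106 ± 12.7 with chaetocin and 124 ± 3.34 with vehicle and did not pass the test (edgeR adjusted p = 0.372 for chaetocin over vehicle).

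Genes near the 65 were tested against vehicle. They are other genes than the 65, and one of them, VWF, met the count limits of the rule and was dropped by name, so its own values are a description. Within 100 kb lay 444 other genes, of which 223 could be tested. With the combination 70 of these rose (31.4%, against 20.1% of all genes tested) and 39 fell (17.5%, against 18.3%), and with chaetocin 52 rose (23.3%, against 12.6%) and 25 fell (11.2%, against 11.9%). Without VWF, 69 of 222 rose with the combination and 51 of 222 with chaetocin. Both comparisons share the vehicle libraries. The share that rose was larger among neighbours of low level: with chaetocin 24 of 64 neighbours under 1 CPM rose (37.5%, against 14.1% of all other genes under 1 CPM), and 28 of 159 at 1 CPM or more (17.6%, against 11.6%). Some low neighbours that rose, such as GNGT2 and ISLR2, passed the filter on low counts only through libraries with chaetocin. How many genes did so, here or in the whole table, was not counted. Some neighbours also overlap the 65 genes and may share their reads. The shares of neighbours that rose, here and below, are therefore a description.

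The kind of gene beside them also went with the count. Near the coding genes 23 of 137 tested neighbours rose with chaetocin (16.8%) and 24 fell, and near the non-coding genes, pseudogenes and unmatched genes 29 of 90 rose (32.2%) and 1 fell. The difference between these shares was not tested. Of the 65 genes, 57 had a tested neighbour, 32 had a neighbour that rose with chaetocin, and 34 overlapped no gene of the table. How many other genes have a neighbour that rose was not counted, so the 32 are a description. Genes that overlap can share reads where counting ignores strand, and the sources used here do not give whether strand was used. Leaving overlapping genes out, 46 of 209 neighbours rose with chaetocin (22.0%) and 25 fell.

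**Figure D5:**
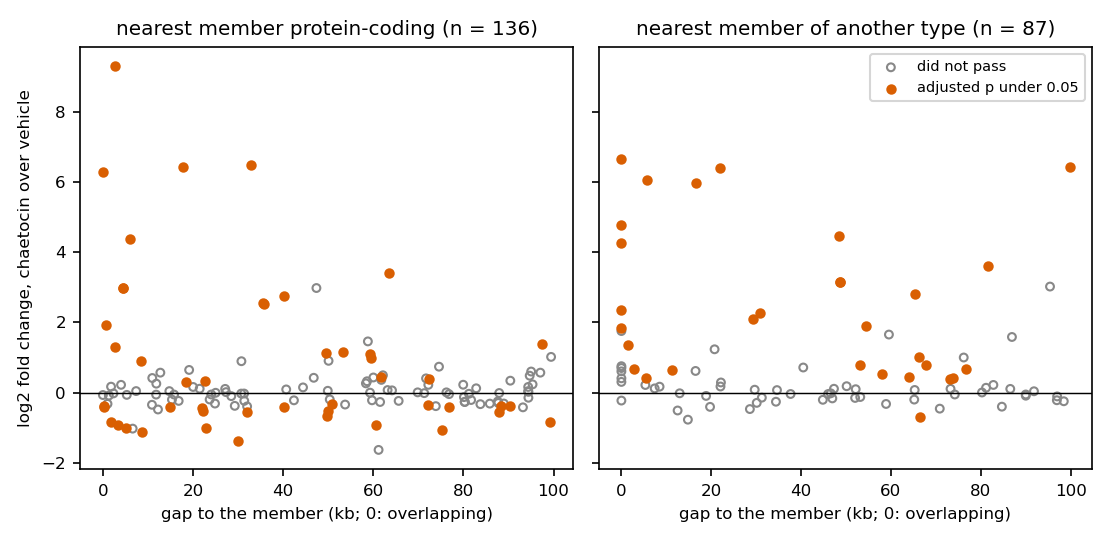
Log2 fold change of chaetocin over vehicle (vertical axis, edgeR) of the 223 tested neighbours by distance from the nearest of the 65 genes (horizontal axis, kb, 0 for overlap). Left, 136 genes nearest to a coding gene; right, 87 nearest to a gene of another type; filled points passed an adjusted p of 0.05. Values over 4 occur at several distances in both panels, and those under 0 that passed lie almost all in the left panel.

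Overlapping genes were few, 14 in the test, and 10 rose with the combination, 6 rose with chaetocin and none fell. COL17A1, a hemidesmosome collagen gene, averaged 10.3 ± 3.31 CPM with the combination, 6.79 ± 0.905 with chaetocin, 0.486 ± 0.105 with MLN8237 and 0.244 ± 0.0308 with vehicle (SD, n = 3 each), a log2 fold change of 4.78 ± 0.29 with chaetocin (SE, edgeR adjusted p = 1.08e-06). MIR936 lies inside it. The mature miR-936 is shown from RefSeq, with its seed (bases 2 to 8) in capitals.
hsa-miR-936: aCAGUAGAgggaggaaucgcag
The 20, 11 and 14 reads with the combination and 10, 20 and 12 with chaetocin at MIR936 lie in a transcribed gene on the same strand and are not a measure of this mature RNA.

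SLCO2B1, an organic anion transporter gene that CTD-2562J17.2 overlaps on the opposite strand, had 71, 33 and 47 reads with the combination, 27, 25 and 42 with chaetocin, 1, 2 and 2 with MLN8237 and 0, 2 and 2 with vehicle, and rose by 4.27 ± 0.59 on the log2 scale with chaetocin (SE, edgeR adjusted p = 0.000295). TMC5, opposite CTA-363E6.5, averaged 13.7 ± 3.14 CPM with the combination, 12.6 ± 1.70 with chaetocin and 2.47 ± 0.464 with vehicle, and GCLC, at RP1-27K12.2, 205 ± 2.48, 218 ± 11.0 and 61.5 ± 8.34 in the same order, both rising in each treatment against vehicle. AC024704.2, which overlaps AC104653.1 on the same strand and may share its reads, and RP11-76C10.5 in GPR133 also rose. SLCO2B1 and AC024704.2 passed the filter on low counts only through libraries with chaetocin, so their p-values and calls are a description.

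The largest rises among the neighbours with chaetocin were in genes that were nearly silent themselves. VWF, the von Willebrand factor of endothelium and platelets, lies 2.64 kb from ANO2 on the same strand. It met the count limits and was dropped only by name, so its rise is no independent result: 247, 68 and 240 reads with the combination, 68, 98 and 89 with chaetocin, 0, 4 and 0 with MLN8237 and none in vehicle, at least 78.3-fold higher with chaetocin. GNGT2, a G protein subunit gene 32.8 kb from B4GALNT2, had 22, 15 and 10 reads with the combination, 10, 5 and 20 with chaetocin and none in vehicle. ISLR2, 17.8 kb from GOLGA6A, had 62, 15 and 36, then 9, 19 and 7, and none in vehicle, and both rose at least 10.8-fold with chaetocin (edgeR adjusted p = 0.00438 for GNGT2 and 0.00617 for ISLR2). GNGT2 and ISLR2 passed the filter on low counts only through libraries with chaetocin, and were named for the size of their change. Their p-values are therefore a description. AC024704.2, AC003003.5 and RP13-143G15.3 were the others of the 6 largest, and they too passed the filter only through those libraries.

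Relatives of the same family, and an epithelial factor gene, stood beside some of the genes. RFPL4A, 5.97 kb from RFPL4AL1, had 162, 65 and 206 reads with the combination, 27, 61 and 39 with chaetocin, 0, 4 and 8 with MLN8237 and 2, 0 and 3 with vehicle (edgeR adjusted p = 0.00211 for chaetocin over vehicle), and PSG9, 4.49 kb from PSG4, had 109, 45 and 115, then 38, 69 and 51, against 6, 5 and 6 with vehicle (edgeR adjusted p = 0.000281). EHF, of the ETS family, 48.5 kb from the pseudogene RP11-350D17.3, had 130, 53 and 106, then 30, 42 and 37, against 0, 2 and 2 with vehicle (edgeR adjusted p = 0.000259). Reads of the RFPL4 and PSG pairs may be shared between copies. RFPL4A, PSG9 and EHF had few reads without chaetocin and passed the filter on low counts through libraries with it, so their p-values are a description.

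Other neighbours fell or did not pass the test. TNFRSF1B, the gene for a receptor of tumour necrosis factor 22.8 kb from TNFRSF8, averaged 6.41 ± 0.711 CPM with the combination and 6.31 ± 0.400 with chaetocin, against 12.7 ± 0.744 with vehicle, and fell by 1.01 on the log2 scale with chaetocin (edgeR adjusted p = 5.29e-05). RP11-87F15.2, the nearest tested neighbour of ASB5, averaged 5.20 ± 1.18, 4.34 ± 0.558 and 4.43 ± 0.903 CPM in the combination, chaetocin and vehicle, with a log2 fold change of -0.03 ± 0.20 with chaetocin (edgeR adjusted p = 0.941). MGA near RP11-380D11.2, DUSP11 near C2orf78 and RP11-383J24.6 near RP11-383J24.1 did not pass the test with chaetocin (edgeR adjusted p = 0.49, 0.122 and 0.0841).

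Genes of the silencing machinery moved in both directions. Of 23 genes for H3K9 methylation, its removal and its readers, 6 rose and 3 fell with the combination, where 20.1% of all genes tested rose and 18.3% fell. With chaetocin, where 12.6% of all genes rose and 11.9% fell, SETDB1, CDYL, ATF7IP and TRIM28 rose and SETDB2 fell. The list's median log2 fold change was 0.07 with the combination and 0.04 with chaetocin. SUV39H1 averaged 37.3 ± 5.26 CPM with the combination and 39.1 ± 0.467 with chaetocin, against 46.9 ± 0.529 with vehicle (SD, n = 3 each), which passed the test with the combination (log2 fold change -0.33, edgeR adjusted p = 0.0206) and not with chaetocin (-0.26, edgeR adjusted p = 0.0792). Of 10 genes for DNA methylation, 3 rose and 4 fell with the combination, and with chaetocin TET3, MBD1, UHRF1 and DNMT3B rose and TET2 fell, against the same shares of all genes.

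Markers of other cell types were read for the same libraries. Of the neuronal markers MAP2 and SYT1 rose with chaetocin, and SNAP25 and RBFOX3 did not pass. With the combination MAP2, SYT1 and SNAP25 rose. Of the germ cell markers DDX4 rose with both treatments that contained chaetocin, SYCP3 did not pass, and TNP1, DAZL and PRM1 had no read in any library. DDX4 had 33, 11 and 26 reads with the combination and 4, 12 and 14 with chaetocin. It had 2, 3 and 5 with MLN8237 and 1, 0 and 0 with vehicle. DDX4 and SNAP25 passed the filter on low counts only through libraries with chaetocin, so their calls are a description. SYCP3, which holds most of the germ cell sum, averaged 7.95 ± 1.03 CPM with the combination, 8.48 ± 0.924 with chaetocin, 16.6 ± 5.78 with MLN8237 and 11.0 ± 1.04 with vehicle (SD, n = 3 each). The 5 neuronal markers summed to 58.5 to 71.8 CPM with the combination, 54.8 to 58.0 with chaetocin, 20.1 to 28.8 with MLN8237 and 31.3 to 33.6 with vehicle, and the 5 germ cell markers to 8.04 to 9.92, 7.84 to 9.51, 12.3 to 21.0 and 9.75 to 11.7 CPM in the same order. None of the listed endothelial, acinar and endocrine markers had enough reads for a test, and INS had none. Of the endothelial ones KDR had 41, 6 and 19 reads with the combination, 8, 8 and 8 with chaetocin, 2, 4 and 6 with MLN8237 and 8, 8 and 4 with vehicle, while VWF, which is not on that list, met the count limits of the rule. Of the fibroblast markers THY1 fell and PDGFRB did not pass. Of 6 epithelial markers 5 fell with each treatment that contained chaetocin. The part of these shifts in the levels of the 65 genes was not tested.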

How the data were processed

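For each of 57773 Ensembl genes the authors deposited read counts and RPKM in 12 libraries, named so per the file headers, beside gene positions and lengths. The deposited RPKM values are scaled by the authors to length and library total, and only describe levels here. CASAVA 1.9, TopHat 12.0.6 (printed as it stands there), HTSeq and hg19 are named without roles in the submitters' processing notes. The sources used here do not give whether counting used strand.

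Counts of 22831 genes passing edgeR's filter by group were fitted with edgeR 4.0.16 in R 4.3.3 (TMM, 4 group means over 12 libraries, robust quasi-likelihood test, Benjamini-Hochberg over all genes, called at adjusted p under 0.05). The script was tested on simulated data. Means of single genes are TMM-scaled CPM. Summed CPM uses the gene count total of a library. A fold against a group without reads is a lower bound against 3 counts over the group, which covers counting error only. Gene type and strand came from GENCODE by Ensembl identifier, neighbours from the authors' positions.

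The 65 genes and all lists were chosen with earlier results of these data known, and the functional groups after the genes were known. Named with full counts were the 12 highest by mean CPM, those at the limit, and neighbours that overlap or lie nearest to the 12 or had the 6 largest changes. CPM of MIR936 is not reported as a microRNA level. Further genes were named after their values were seen: members and neighbours of shared families, TNFRSF1B, EHF, HIF1A and DDX39B.

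Alternatives were RLE scaling, DESeq2 1.42.0, no filter, a stricter filter, the replicate number as a block, only the groups compared, other limits and windows, and each library left out. A member gene and a marker are not reported here by name.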

Additional observations from a re-analysis of the deposited data

How the results depend on the processing

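The number of genes meeting the rule, against 65, was 171 with a minimum of 5 reads and 17 with a minimum of 20. It was 30 with no read allowed in vehicle and 48 with counts scaled to the mean library total. With each library left out it was 65 to 101, the highest without vehicle replicate 3. The limits were not changed there, so leaving a library out could only keep or raise this number. Genes called in the combination against chaetocin numbered 0, but 36 with no filter, 296 with DESeq2 and 0 to 573 with each library left out, the highest without combination replicate 2. Of the 65 genes 0 were called higher, but 3 with no filter (TAGLN3, RP11-380D11.2 and C2orf78), 5 with DESeq2 (these, TNFRSF8 and LEKR1) and 0 to 5 with each library left out. The count of positive changes among the 65 was 59 to 65 with each library left out. Genes called in chaetocin against vehicle numbered 5591, and 3704 to 4705 with each library left out, the lowest without vehicle replicate 2. For the combination against vehicle they numbered 8780, and 6564 to 9095. Neighbours that rose with chaetocin numbered 30 with a stricter filter, 33 within 50 kb and 96 within 250 kb, against 52, and with the combination 43, 45 and 148, against 70. The stricter filter tests fewer genes. Other causes were not tested.

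RP11-87F15.2, at -0.03 on the log2 scale with chaetocin, stood at 0.010 with the stricter filter, at -0.18 to 0.11 with each library left out (above 0 without chaetocin replicate 3, at 0.04, and without vehicle replicate 2) and at 0.060 without the treated libraries numbered 3, an alternative chosen after seeing the data. CTD-2287O16.1, which overlaps ARL14EPL, stood at -0.07, and at -0.16 to 0.030 with each library left out (above 0 without chaetocin replicate 1, at 0.003, and without vehicle replicate 1). Neither passed the test. Of 29 single genes followed, 21 kept their call and direction under every alternative run.

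Whether the replicate numbers pair the libraries was not settled. Between the combination and chaetocin, same-numbered libraries correlated at 0.167, -0.007 and 0.462 in their deviations, and libraries of different number at -0.417 to 0.267. The highest value was that of the libraries numbered 3. With the replicate block the calls numbered 0 for the combination against chaetocin, 6798 for chaetocin against vehicle and 10024 for the combination against vehicle, 0 of the 65 genes, and 58 and 77 neighbours that rose with chaetocin and with the combination.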
